A study of Mus musculus with 64 samples.

Results

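ACY957 was compared with its vehicle in the ventral tegmental area of mice whose clock output stood at the wildtype level. The ventral tegmental area is the midbrain region that holds the mesolimbic dopamine neurons. The comparison held 17 libraries, 1 per mouse, of the 32 ACY957 and vehicle libraries and of 64 in the series. They were selected on a clock score, an average of log2 CPM over 8 clock output genes, and libraries with a score above 4.62 were kept. CPM here gives the reads of a gene relative to the library total after scaling between libraries. The 9 ACY957 libraries were 7 labelled wildtype (replicates 1 to 7) and 2 labelled mutant (replicates 1 and 3). The 8 vehicle libraries were 5 labelled wildtype (replicates 1 to 5) and 3 labelled mutant (replicates 6, 7 and 8). The mutant label, Clock delta 19, is an allele of Clock whose protein acts in a dominant-negative way, and 5 of the 17 libraries carried that label although their clock score was high. Among mice numbered from 48 on, the vehicle labels depart from the 8 mice per group of the design text. The 3 vehicle libraries labelled mutant (mice 59, 60 and 61) are in that block. Whether the labels give the genotype was not tested.

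All mice were adult males of the strain given as 129S1/Svlm. They received ACY957, which inhibits class I histone deacetylases selectively, or its vehicle for 14 days. Tissue was taken as bilateral punches of 1 mm, at zeitgeber time 6 and roughly 24 h from the final dose. The series also holds mice given valproate (VPA), which is used as a mood stabiliser and blocks histone deacetylases less selectively, or the VPA vehicle.

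Histone deacetylases remove acetyl groups from histones, and HDAC1, HDAC2 and HDAC3 are the class I enzymes that act in corepressor complexes on chromatin. In the circadian clock, CLOCK and BMAL1 bind E-boxes and activate the Period and Cryptochrome genes, whose proteins then repress CLOCK and BMAL1. The same pair drives output genes such as Dbp and Tef, transcription factors of the PAR bZIP family, and Nr1d1 and Nr1d2, the REV-ERB repressors. NR1D proteins recruit HDAC3 through the corepressor NCoR. In mice with the delta 19 allele, activation of these genes by CLOCK is reduced.

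An E-box of the letters CACGTG marks the promoters of some of the genes that set the score, and one was also found upstream of Nmu, the gene that rose with ACY957. The sequences are from RefSeq (GRCm38.p6), cover 250 bases before to 50 bases after the start of the gene, are given on the strand of the gene, and have each CACGTG in capitals. Ciart, which encodes a repressor of CLOCK and BMAL1, had 3 matches, with first bases at -116, -58 and -44 (chr3:95882179-95882478, minus strand). Bhlhe41, which encodes the repressor DEC2, had 1 at -153 (chr6:145865371-145865670, minus strand). Nmu, which encodes the neuropeptide neuromedin U, had 1 at -57 (chr5:76363728-76364027, minus strand).
Ciart: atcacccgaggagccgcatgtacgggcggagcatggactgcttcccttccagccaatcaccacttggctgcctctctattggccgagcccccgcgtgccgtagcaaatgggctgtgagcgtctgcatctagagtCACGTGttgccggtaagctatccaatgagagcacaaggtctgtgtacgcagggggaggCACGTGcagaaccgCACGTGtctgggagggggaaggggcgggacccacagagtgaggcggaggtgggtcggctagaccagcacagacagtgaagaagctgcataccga
Bhlhe41: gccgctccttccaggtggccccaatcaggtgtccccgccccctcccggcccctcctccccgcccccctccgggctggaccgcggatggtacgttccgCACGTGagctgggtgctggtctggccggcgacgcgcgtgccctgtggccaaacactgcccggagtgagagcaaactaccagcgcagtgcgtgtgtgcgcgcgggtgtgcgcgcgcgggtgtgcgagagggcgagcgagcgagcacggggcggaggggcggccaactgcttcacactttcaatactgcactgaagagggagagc
Nmu: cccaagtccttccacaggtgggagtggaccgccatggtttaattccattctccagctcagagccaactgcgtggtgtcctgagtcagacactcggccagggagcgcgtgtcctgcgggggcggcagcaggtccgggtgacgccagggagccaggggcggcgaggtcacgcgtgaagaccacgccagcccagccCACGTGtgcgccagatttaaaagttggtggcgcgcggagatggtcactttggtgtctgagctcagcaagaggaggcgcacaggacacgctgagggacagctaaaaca
The letters read the same on both strands, so each match is counted once. They occurred in 2349 of 32851 promoters of this length in the table (7.15%). Tef had 1 match in each of its 2 listed promoters, at -127 and -138. No match lay in the windows of Dbp, Per3, Nr1d1, Nr1d2, Nmur2 or Nsdhl, and the promoter of Per2 was not analysed here. Other letters were searched too. TGACG, found in 20.8% of promoters, lay in Nmu at -114 and in Nsdhl at 3. TTANGTAA, with N for any base, lay in Per3 at -205 and -158 and not in Nmu. A match is a description of the letters and shows no binding.

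The score that chose the libraries separated the 32 into a set above and a set below the threshold, called the upper and the lower clock set here. In the upper set the score ran from 4.91 to 5.39 in ACY957 libraries (median 5.25, n = 9), and from 5.17 to 5.45 in vehicle libraries (median 5.32, n = 8). The lowest scores inside were 4.91 and 4.96, in the ACY957 libraries labelled mutant, replicates 3 and 1. The highest outside was 4.28, in the ACY957 library labelled wildtype, replicate 8, and in the vehicle library labelled mutant, replicate 3. No library lay between 4.28 and 4.91, and the same 17 libraries were chosen when the score was computed without TMM scaling or without any 1 of its genes. The score genes are given without a test, since they chose the libraries.

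**Figure D1:**
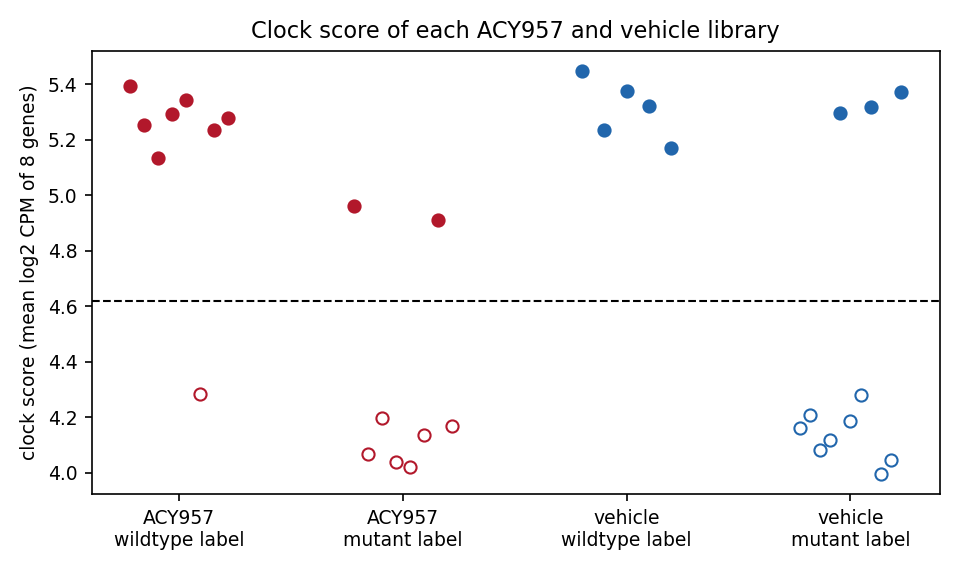
Clock score (mean log2 CPM of 8 genes, y axis) of each ACY957 and vehicle library, by label; filled points lie above the threshold of 4.62 (dashed line) and open points below it. The filled points are the 9 ACY957 and 8 vehicle libraries compared, and the 2 ACY957 libraries labelled mutant are the lowest of them.

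Among these genes Dbp had its median at 64.1 CPM in ACY957 libraries (50.7 to 76.2), against 75.8 CPM in vehicle libraries (66.5 to 86.8). Nr1d1 had a median of 38.4 CPM in ACY957 libraries and 44.5 CPM in vehicle libraries. The score genes chose the libraries, and the lowest scores inside belong to ACY957 libraries labelled mutant. No drug effect on clock output can therefore be read from these values. Tef had medians of 285 CPM with ACY957 and 317 CPM with vehicle, Per2 (a Period repressor) 6.93 and 7.43 CPM, Per3 7.55 and 7.75 CPM, Nr1d2 194 CPM in both groups, Ciart 8.25 and 8.52 CPM, and Bhlhe41 60.6 and 60.3 CPM.

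Total counts were 22.7 M to 29.8 M per library among the 17, and correlations of log2 CPM between them were 0.979 to 0.994. Th, the tyrosine hydroxylase gene that marks dopamine neurons, was at 384 to 1418 CPM with ACY957 (median 1120) and 704 to 1349 CPM with vehicle (median 906), so it was well detected in every punch. Its spread was wider with ACY957, with a log2 SD of 0.71 (n = 9) against 0.32 with vehicle (n = 8). Below every vehicle library lay the ACY957 libraries labelled wildtype, replicates 1, 5 and 6, and mutant, replicate 1. They were at 504, 516, 384 and 669 CPM. A pair of ACY957 libraries stood apart in other measures. The ACY957 library labelled mutant, replicate 3, had a summed level of choroid plexus and ependyma markers of 498 CPM, against at most 37.4 CPM in any other ACY957 library and 56 CPM in vehicle libraries. The ACY957 library labelled wildtype, replicate 6, had the lowest Th and the highest summed levels of ribosomal protein genes (25828 CPM, next 22979 CPM) and glucocorticoid-responsive genes (1569 CPM, next 1165 CPM). Results without either library are among the values given without each library in turn. In punches of tissue, fewer cells of a type and less RNA per cell cannot be told apart.

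Few genes differed between ACY957 and vehicle in the upper clock set. Of 14696 genes tested with edgeR's quasi-likelihood test, 2 passed an adjusted p of 0.05 (0.0136%), and they were Nmu, which rose, and Nsdhl, a gene of cholesterol synthesis, which fell. At an unadjusted p under 0.05 there were 961 genes, 499 higher and 462 lower (6.54% of those tested), and the median log2 fold change over all genes was -0.0017. DESeq2 called 19 genes and limma voom called 0, so the count depends on the test. Without 1 library the count lay between 0, without the vehicle library labelled wildtype, replicate 2, and 4, without the ACY957 library labelled wildtype, replicate 7. In the libraries labelled wildtype alone (7 ACY957, 5 vehicle) the count was 0.

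In 2 genes every ACY957 library lay above every vehicle library (0.0136% of the genes tested), and these were Nmu and Anks3, which encodes an ankyrin repeat protein. In 4 genes every ACY957 library lay below every vehicle library (0.0272%). These were Nsdhl, Ngfr (the p75 neurotrophin receptor), Mcph1 (microcephalin, a protein of chromosome condensation and the DNA damage response) and Dctn5 (a subunit of dynactin).

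Of the 2 genes that passed, Nmu had the larger change. The gene lies on chromosome 5, 76333495 to 76363788 on mm10 (minus strand), 28.7 kb from the end of Clock with 1 other gene of the file between them. In ACY957 libraries labelled wildtype, replicates 1 to 7, Nmu was at 7.25, 16.2, 1.95, 4.74, 6.26, 5.86 and 3.10 CPM, and in those labelled mutant, replicates 1 and 3, at 11.8 and 1.92 CPM. In vehicle libraries labelled wildtype, replicates 1 to 5, it was at 0.572, 0.485, 0.607, 0.561 and 0.461 CPM, and in those labelled mutant, replicates 6, 7 and 8, at 0.795, 0.732 and 0.596 CPM. The groups did not overlap: the lowest ACY957 library had 1.92 CPM (51 reads) and the highest vehicle library 0.795 CPM (20 reads). Within the ACY957 libraries the lowest values were in replicate 3 of either label and the highest in wildtype-labelled replicate 2, and the vehicle libraries lay close together. The mean was 6.56 ± 4.73 CPM with ACY957 (SD, n = 9) and 0.601 ± 0.114 CPM with vehicle (SD, n = 8). Nmu rose by 3.44 on the log2 scale (SE 0.45, adjusted p = 0.0105 by edgeR), a 10.9-fold difference. The call was lost without the vehicle library labelled wildtype, replicate 2 (3.40, adjusted p = 0.0640), and in voom (3.11, adjusted p = 0.349). It was also lost in libraries labelled wildtype alone (3.58, adjusted p = 0.245), without the vehicle mice numbered from 48 on (3.60, adjusted p = 0.329), and with surrogate variables (2.93, adjusted p = 0.170).

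Nmur2, the receptor for neuromedin U that is found mainly in the brain, was low in all libraries. It was at 0.218 to 1.06 CPM with ACY957 (median 0.712) and at 0.0357 to 0.397 CPM with vehicle (median 0.243). Of the 9 ACY957 libraries, 8 lay above every vehicle library, and the exception was the library labelled wildtype, replicate 7. The log2 fold change was 1.60 (SE 0.35), which did not pass in edgeR (adjusted p = 0.307). It passed in DESeq2 (adjusted p = 0.0223) and when all 32 libraries were compared with the genotype label as a term (1.74, adjusted p = 0.000784). The receptor and its peptide are counted in the same libraries, and at 1 to 29 reads per library the counts for Nmur2 limit the precision.

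**Figure D2:**
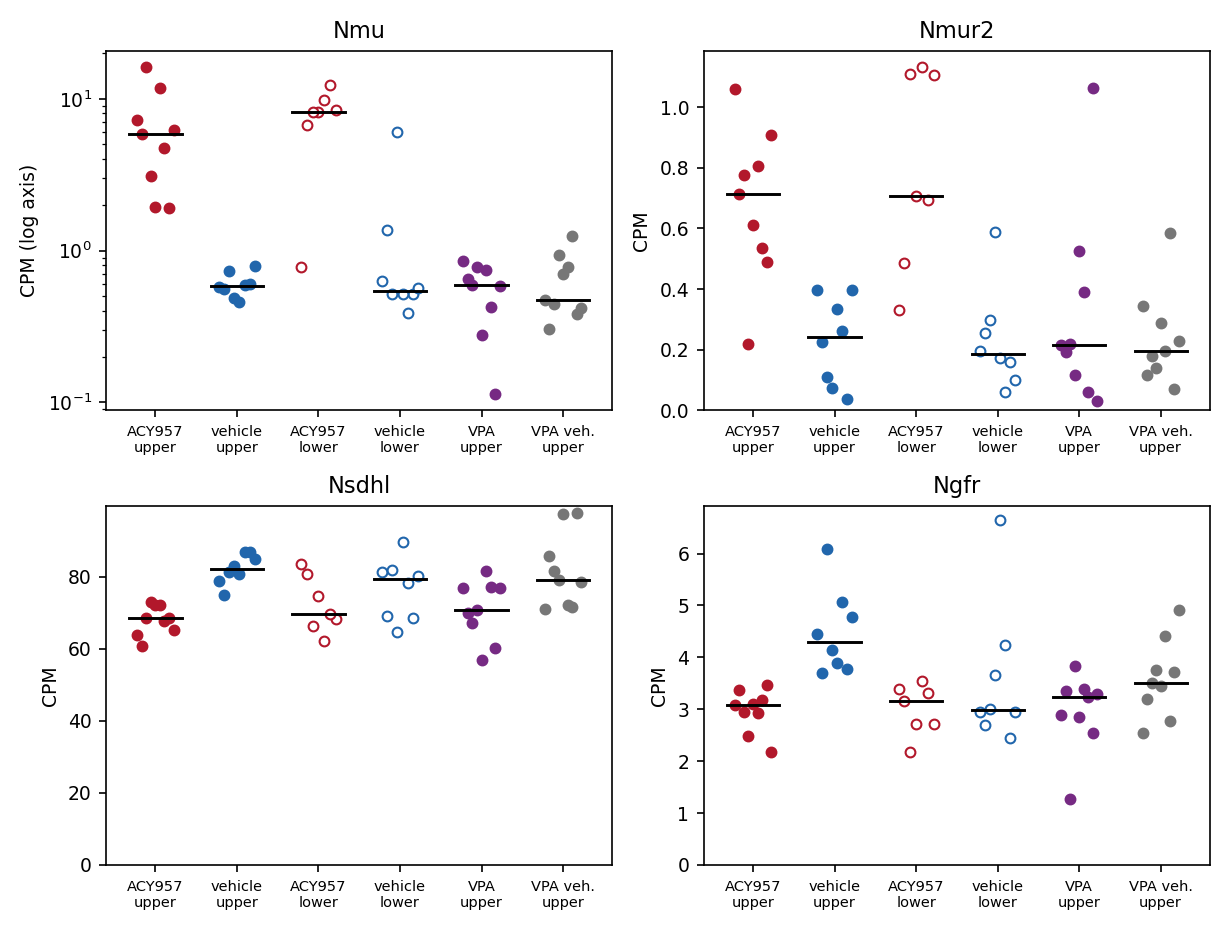
CPM per library (points) and group median (line) of Nmu (log axis), Nmur2, Nsdhl and Ngfr in the upper clock set under ACY957 and vehicle, in the lower clock set under ACY957 and vehicle (open points), and in the upper clock set under VPA and its vehicle. Nmu was at 1.92 CPM or more in each ACY957 library of the upper set and at 0.795 CPM or less in each vehicle library of that set.

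Nsdhl, on the X chromosome (72918557 to 72958514, plus strand), encodes a dehydrogenase that removes methyl groups from sterols on the way to cholesterol. In ACY957 libraries labelled wildtype, replicates 1 to 7, it was at 63.9, 68.6, 72.3, 67.8, 65.2, 60.7 and 72.9 CPM, and in those labelled mutant, replicates 1 and 3, at 72.0 and 68.6 CPM. In vehicle libraries labelled wildtype it was at 78.9, 82.9, 86.9, 75.0 and 80.8 CPM, and in those labelled mutant at 84.9, 81.4 and 86.9 CPM. All 9 ACY957 libraries lay below all 8 vehicle libraries. Nsdhl fell by 0.27 on the log2 scale (SE 0.04, adjusted p = 0.0242 by edgeR), to 0.829 of the vehicle level. The fold change changed little without any 1 library (-0.29 to -0.25), but the call did not hold without 11 of them. These were the ACY957 libraries labelled wildtype, replicates 1, 2, 4 and 5, and mutant, replicate 3, and the vehicle libraries labelled wildtype, replicates 2, 3 and 5, and mutant, replicates 6, 7 and 8 (adjusted p up to 0.0894). Nor did it hold in voom, with pooled vehicles, with surrogate variables, over all 32 libraries without selection, in the fits of 32 or 64 libraries, in libraries labelled wildtype alone or without the vehicle mice numbered from 48 on (adjusted p from 0.0523 with pooled vehicles to 0.613 without those mice).

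Genes of cholesterol synthesis had lower values with ACY957 as a group, although Nsdhl was the 1 member that passed. Cells make cholesterol from acetyl-CoA through mevalonate and squalene, and the factor SREBP2 switches these genes on when sterol is low. Of 20 listed genes tested, 18 had a lower and 2 a higher fitted value, against 7481 lower and 7215 higher over all genes. The median log2 fold change was -0.18, against -0.0017 over all genes, and 14 of the 20 had an unadjusted p under 0.05 in the lower direction, against 462 of 14696. The genes were read in the same 17 libraries, so their p-values are not independent of each other. Members of the list were chosen with earlier results of these data known. Their summed level was 2295 to 2923 CPM with ACY957 (median 2579) and 2771 to 3093 CPM with vehicle (median 2960). The ranges of the sum overlapped. The median lay between -0.19 and -0.15 without any 1 library, and at -0.19 in libraries labelled wildtype alone.

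Early steps of the pathway were among the lower values. Hmgcs1, which makes HMG-CoA, was at 373 to 559 CPM with ACY957 (median 468) and 515 to 579 CPM with vehicle (median 540), and 7 of 9 ACY957 libraries lay below all vehicle libraries. Its log2 fold change was -0.22 (SE 0.06, adjusted p = 0.476). Fdps, which makes farnesyl pyrophosphate, differed by -0.22 (SE 0.06, adjusted p = 0.455) and Fdft1, squalene synthase, by -0.20 (SE 0.05, adjusted p = 0.450). Acat2, which joins acetyl-CoA units ahead of the pathway and was not on the list, was at 66.1 to 88.8 CPM with ACY957 and 83.8 to 97.8 CPM with vehicle, and 8 of 9 ACY957 libraries lay below all vehicle libraries (log2 fold change -0.21, SE 0.05, adjusted p = 0.366).

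Later steps gave mixed values, most of them lower. On the log2 scale, Hsd17b7, a sterol reductase, differed by -0.24 (SE 0.07, adjusted p = 0.455), and Msmo1, which acts with Nsdhl in sterol demethylation, by -0.17 (SE 0.05, adjusted p = 0.455). Dhcr7, which makes the last reduction to cholesterol in one branch, had -0.18 (SE 0.06, adjusted p = 0.501). Cyp51, a sterol demethylase that acts before Msmo1, had -0.08 (SE 0.05, adjusted p = 0.808). Srebf2, which encodes SREBP2, had -0.09 (SE 0.05, adjusted p = 0.805). The members with higher values were Pmvk at 0.04 (SE 0.06) and Sc5d at 0.12 (SE 0.13), whose highest ACY957 library reached 111 CPM against a median of 57.3 CPM.

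Oligodendrocytes, which make the cholesterol of myelin, gave lower values in the same direction. All 12 oligodendrocyte markers had lower fitted values with ACY957, with a median log2 fold change of -0.10 and 0 that passed. Their summed level was 11532 to 17223 CPM with ACY957 (median 14538) and 14069 to 17507 CPM with vehicle (median 15554). Opalin, a myelin membrane protein, had -0.27 (SE 0.10, adjusted p = 0.661). The part of these cells in the cholesterol values was not tested.

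**Figure D3:**
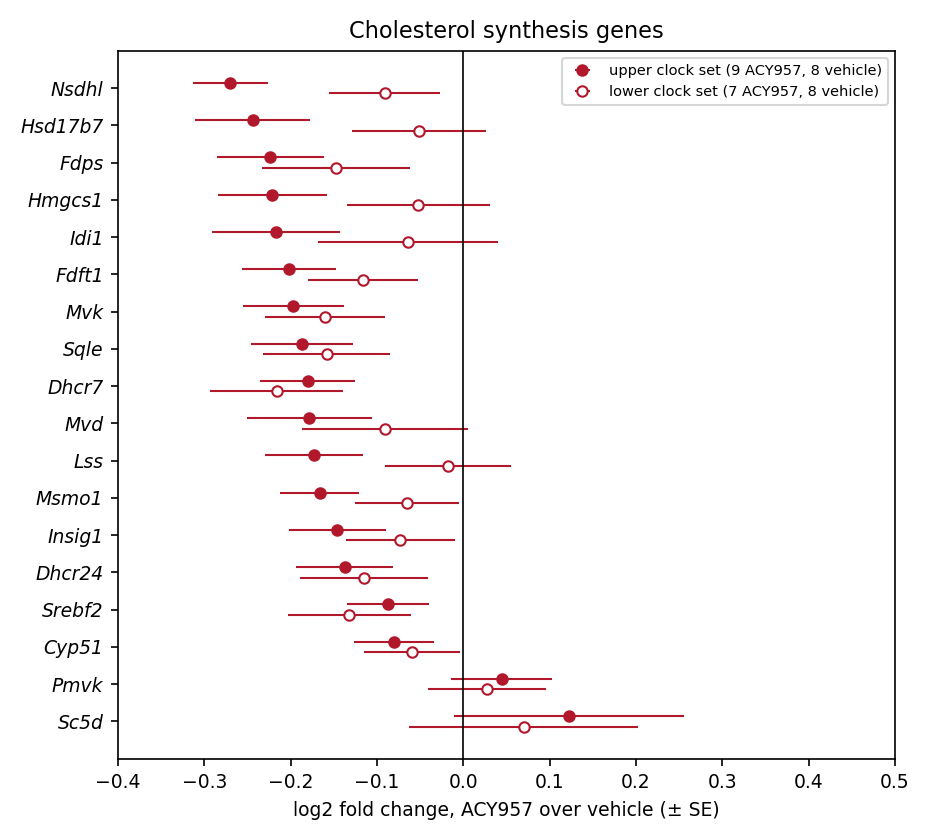
Log2 fold change of ACY957 over vehicle (x axis, bars are SE) for 18 genes of cholesterol synthesis, in the upper clock set (filled) and the lower clock set (open). In the upper set 16 of these 18 lie left of 0, and Nsdhl at -0.27 is the lowest.

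Beyond these, the genes with the smallest p did not pass. Among higher values, Samd14 was at 61.6 to 77.7 CPM with ACY957 and 50.4 to 66.6 CPM with vehicle (log2 fold change 0.27, SE 0.05, adjusted p = 0.146). Atf4, the transcription factor of the integrated stress response, was at 106 to 148 CPM with ACY957 (median 137) and 85.3 to 130 CPM with vehicle (median 98.5). Its log2 fold change was 0.37 (SE 0.08, adjusted p = 0.307), and it passed without the vehicle library labelled wildtype, replicate 4 (0.43, adjusted p = 0.0306), which at 130 CPM was the highest of its group. Kif5a, a kinesin of axonal transport, had medians of 652 CPM with ACY957 and 516 CPM with vehicle (0.42, SE 0.10, adjusted p = 0.307), with 7 of 9 ACY957 libraries above all vehicle libraries. Spag5, a protein of the mitotic spindle, had medians of 6.4 CPM with ACY957 and 4.7 CPM with vehicle (0.47, SE 0.10), and 8 of 9 ACY957 libraries lay above all vehicle libraries. Samd14 and Spag5 passed without the ACY957 library labelled wildtype, replicate 7, both at adjusted p = 0.0492. Spag5 also passed over all ACY957 and vehicle libraries with the label as a term (0.46, adjusted p = 0.0359).

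Other genes of this rank did not pass either. Anks3, at 12.8 to 19.0 CPM with ACY957 and 10.5 to 12.4 CPM with vehicle, differed by 0.32 on the log2 scale (SE 0.08, adjusted p = 0.307). Vwf, the von Willebrand factor of blood vessels, had 0.37 (SE 0.08), Git1, a synaptic scaffold protein, 0.28 (SE 0.06), and Ccnl1, a cyclin linked to splicing, 0.30 (SE 0.07), each at adjusted p = 0.307. DESeq2 called these 4 genes as well as Samd14, Atf4, Kif5a, Spag5 and Nmur2.

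Among lower values, Ngfr was at 2.18 to 3.47 CPM with ACY957 (median 3.07) and 3.70 to 6.08 CPM with vehicle (median 4.29). The groups did not overlap, and the log2 fold change of -0.59 (SE 0.11) did not pass (adjusted p = 0.146). Mcph1 was at 10.1 to 13.1 CPM with ACY957 (median 11.5), below its 13.1 to 16.7 CPM with vehicle (median 14.1), and differed by -0.33 on the log2 scale (SE 0.06, adjusted p = 0.146). Dctn5 was at 95.6 to 105 CPM with ACY957 and 108 to 117 CPM with vehicle (-0.14, SE 0.03, adjusted p = 0.307). Asb3, which encodes an ankyrin and SOCS box protein, had -0.21 (SE 0.05, adjusted p = 0.307), Upp2, a uridine phosphorylase, -0.33 (SE 0.08, adjusted p = 0.342), and Arpin, an inhibitor of the Arp2/3 complex, -0.22 (SE 0.05, adjusted p = 0.379). Carns1, which makes carnosine, had -0.27 (SE 0.07, adjusted p = 0.379), and Eogt, a glycosyltransferase, -0.23 (SE 0.06, adjusted p = 0.423). DESeq2 called Ngfr, Mcph1, Dctn5 and Asb3 of these.

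Class I histone deacetylases were measured as RNA only, so inhibition of the enzymes cannot be read from these values. Hdac1 was at 16.5 to 20.1 CPM with ACY957 (median 17.9) and 16.6 to 20.7 CPM with vehicle (median 17.3), a log2 fold change of 0.04 with a 95% interval of -0.08 to 0.16. Hdac2 had medians of 89.2 CPM with ACY957 and 88.8 CPM with vehicle, and an interval of -0.10 to 0.09. Hdac3 had medians of 94.3 CPM with ACY957 and 97.6 CPM with vehicle, and an interval of -0.11 to 0.08. Of 29 corepressor subunits of class I enzymes 0 passed, with 15 higher, 14 lower and a median of 0.02.

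Genes often induced by deacetylase inhibitors had no shared direction as a list. Of 24 tested, 11 were higher and 13 lower, 0 passed, and the median was -0.02. By edgeR, 3 had an unadjusted p under 0.05 in the higher direction and 0 in the lower, against 499 and 462 of 14696 over all genes. Within the list Gadd45g, a stress-induced growth arrest gene, had medians of 8.36 CPM with ACY957 and 6.69 CPM with vehicle, with 6 of 9 ACY957 libraries above all vehicle libraries (log2 fold change 0.33, SE 0.09, adjusted p = 0.455). Hexim1, an inhibitor of P-TEFb, had 0.16 (SE 0.06, adjusted p = 0.579), and H1f0, a linker histone, 0.22 (SE 0.09, adjusted p = 0.704). Messages of clustered histone genes mostly lack poly(A) tails, and in these poly(A)-selected libraries 8 of 68 had enough reads to be tested. Of the 8, 6 were higher and 2 lower with a median of 0.12, and Hist2h2be, a polyadenylated one, had 0.34 (SE 0.09, adjusted p = 0.455).

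The clock beyond the score genes gave no call. Clock itself was at 56.3 to 78.6 CPM with ACY957 (median 67.8) and 64.7 to 81.1 CPM with vehicle (median 69.0), a log2 fold change of -0.06 with a 95% interval of -0.18 to 0.06 (adjusted p = 0.914). A change within the protein, such as the delta 19 allele, is not seen in its gene count. Of 15 further core clock genes, 7 were higher and 8 lower, with a median of -0.0075. Arntl, which encodes BMAL1, had medians of 16.7 CPM with ACY957 and 15.1 CPM with vehicle, a difference of 0.19 on the log2 scale (SE 0.07, adjusted p = 0.661), with 6 of 9 ACY957 libraries above all vehicle libraries.

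Dopamine genes gave no call, which does not show that they were unchanged. Th had a log2 fold change of -0.05 (SE 0.26, 95% interval -0.60 to 0.50). Of 12 genes of dopamine synthesis, transport and breakdown, 3 were higher and 9 lower, with a median of -0.02 and 0 that passed. Dopamine neuron transcription factors had a median of -0.06 (4 higher, 7 lower) and dopamine receptors and their partners one of -0.02 (4 higher, 6 lower). All 8 nicotinic receptor subunits had lower values, with a median of -0.14 and 0 that passed. Their summed level was 354 to 1022 CPM with ACY957 (median 771) and 593 to 933 CPM with vehicle (median 742), so the medians of the sum lay the other way. Chrna7, the subunit of the alpha7 receptor, had medians of 24.9 CPM with ACY957 and 28.4 CPM with vehicle (log2 fold change -0.21, SE 0.09, adjusted p = 0.719).

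Some lists of other genes had mostly higher values. Of 15 glucocorticoid-responsive genes, 13 were higher, 0 passed and the median was 0.22, with 0.05 to 0.25 without any 1 library, the lowest without the ACY957 library labelled wildtype, replicate 6. In the lower clock set all 15 were higher with a median of 0.56, and under VPA in the upper set the median was 0.56 too. Of 77 cytosolic ribosomal protein genes tested, 67 were higher and 10 lower with a median of 0.10, and 0.04 to 0.13 without any 1 library, the lowest without the same library. Of 6 choroid plexus and ependyma markers tested, 5 were higher with a median of 0.85, and 0.12 to 0.96 without any 1 library, the lowest without the ACY957 library labelled mutant, replicate 3. Ttr, the choroid plexus transthyretin, was at 430 CPM in the ACY957 library labelled mutant, replicate 3, and at 0.712 to 12.9 CPM in the other ACY957 libraries. Of 10 astrocyte markers 7 had higher values (median 0.11), as did 9 of 10 markers of oligodendrocyte precursors (median 0.10), while 8 of 12 microglia markers had lower values (median -0.07). In each of these lists 0 passed. In the lower clock set the ribosomal protein genes went the other way, 24 higher and 53 lower with a median of -0.03. Choroid plexus and ependyma markers were 3 higher and 3 lower there (median -0.10), and oligodendrocyte precursor markers 4 higher and 6 lower (median -0.09). Astrocyte markers were 7 higher and 3 lower in that set (median 0.03), and microglia markers 2 higher and 10 lower (median -0.04). Enpp6, a marker of newly formed oligodendrocytes, had -0.26 (SE 0.12, adjusted p = 0.752).

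**Figure D4:**
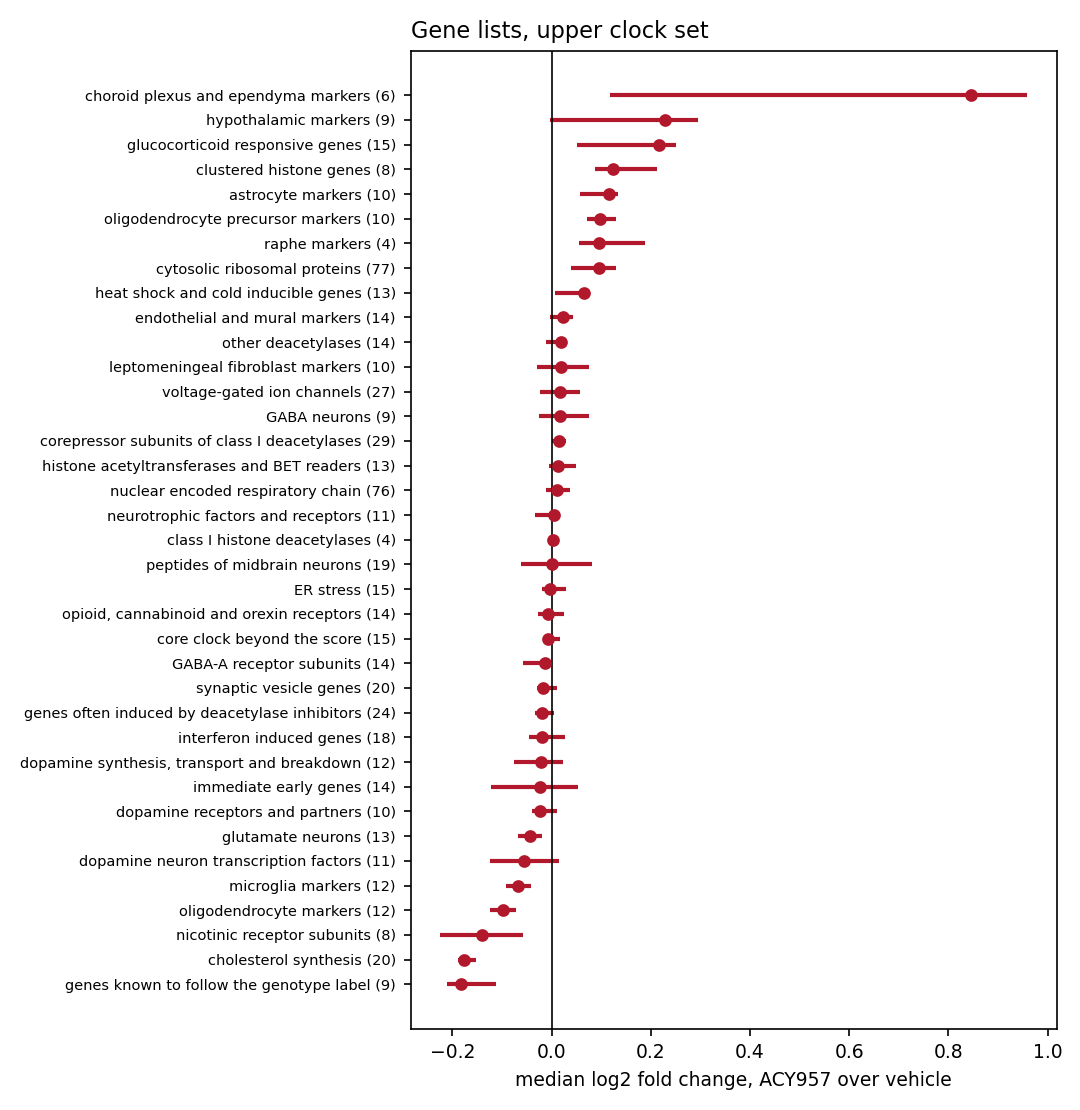
Median log2 fold change of ACY957 over vehicle in the upper clock set for each gene list with 4 or more genes tested (points, number tested in parentheses), with the range of that median when each library was left out in turn (bars). Cholesterol synthesis lies at -0.18 with a short bar, and the choroid plexus list at 0.85 with a long one.

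The response to ACY957 was then set against that in the lower clock set, which shares no library with the upper set. It held 7 ACY957 libraries (1 labelled wildtype and 6 labelled mutant) and 8 vehicle libraries, all labelled mutant. Of 15011 genes tested, 0 differed in their ACY957 effect between the sets by edgeR's test of the difference (0%), with 390 at an unadjusted p under 0.05 and 0 by DESeq2 and voom. The 3 named genes with the smallest p were Adgrd1, an adhesion receptor, at -1.45 for the difference, Ak7, an adenylate kinase of cilia, at 4.36, and Rbm46, an RNA-binding protein, at -1.43, each with an adjusted p of 0.99993.

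Nmu was high under ACY957 in the lower set too. It was at 0.786 to 12.2 CPM with ACY957 (median 8.22) and 0.390 to 6.02 CPM with vehicle (median 0.542). A pair of libraries went against the rest of their groups. The library labelled ACY957, wildtype, replicate 8, was at 0.786 CPM, the level of the vehicle libraries. The library labelled vehicle, mutant, replicate 2, was at 6.02 CPM, the level of the ACY957 libraries, and no library was moved. The log2 fold change in the lower set was 2.57 (SE 0.53, adjusted p = 0.249), and the difference between the upper and the lower set was 0.87 (SE 0.78, adjusted p = 0.99993). Nmur2 had 1.80 (SE 0.38, adjusted p = 0.249) in the lower set, with a median of 0.706 CPM under ACY957 and 0.184 CPM under vehicle.

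Nsdhl had a log2 fold change of -0.27 in the upper set and -0.09 (SE 0.06, adjusted p = 0.804) in the lower. The difference of -0.18 (SE 0.09) did not pass (adjusted p = 0.99993). In the lower set 18 of the 20 cholesterol synthesis genes had lower values, with a median of -0.08. All 12 oligodendrocyte markers had lower values there, with a median of -0.19, and their part in the cholesterol values was not tested. Ngfr had -0.59 in the upper set and -0.26 (SE 0.16) in the lower, and Mcph1 -0.33 in the upper and -0.05 (SE 0.08) in the lower. Atf4 had 0.37 in the upper and 0.20 (SE 0.09) in the lower.

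VPA gave the most similar comparison, since it also inhibits histone deacetylases and had a vehicle group of its own. In the upper clock set there were 9 VPA libraries (8 labelled wildtype, 1 labelled mutant) and 9 libraries of the VPA vehicle (3 and 6). Of 15006 genes, 1 differed between the ACY957 effect and the VPA effect (0.00666%) in edgeR's test of the difference, and this was Nmu. DESeq2 called 9 and voom 0. Nmu was at 0.114 to 0.859 CPM with VPA (median 0.593) and 0.305 to 1.25 CPM with the VPA vehicle (median 0.474), and its log2 fold change under VPA was -0.17 (SE 0.39). The ACY957 effect exceeded it by 3.61 on the log2 scale (SE 0.53, adjusted p = 0.00105 by edgeR). All 9 ACY957 libraries lay above all VPA libraries of the upper set.

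Nmur2 had a log2 fold change of 1.60 under ACY957 and 0.35 (SE 0.46) under VPA, and the difference of 1.24 (SE 0.65) did not pass (adjusted p = 0.690). Cholesterol synthesis genes had a median of -0.18 under either drug. Oligodendrocyte markers had a median of -0.10 under ACY957 and -0.34 under VPA, and their part in these values was not tested. Nsdhl had -0.27 under ACY957 and -0.20 (SE 0.06) under VPA, a difference of -0.07 (SE 0.09, adjusted p = 0.905). Hmgcs1 had -0.22 under ACY957 and -0.26 under VPA, and Dhcr7 -0.18 and -0.34. Of the other genes with small p, Vwf had 0.37 under ACY957 and 0.46 under VPA, Carns1 -0.27 and -0.28, Atf4 0.37 and -0.01, and Kif5a 0.42 and 0.0018. These differences between the drugs did not pass, which does not show that the drugs act alike. The count of genes that differed was 11 without the ACY957 library labelled wildtype, replicate 6, and 11 without the 3 libraries in which Th was under 8 log2 CPM. All 3 were in the VPA arms. Th was at 98.1 CPM in VPA wildtype-labelled replicate 3 and 44.1 CPM in VPA mutant-labelled replicate 2. It was at 201 CPM in VPA vehicle mutant-labelled replicate 3. Nsdhl was at 56.9, 60.1 and 71.5 CPM in these libraries. Median total counts were 32.1 M with VPA and 25.4 M with its vehicle. The part of dissection and depth in the VPA values was not tested.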

How the data were processed

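Poly(A)-selected stranded libraries were read at 75 bases. The authors deposited raw read counts per gene symbol, with no normalization, and the counts were checked to be whole numbers. Reads were mapped to mm10 with TopHat2 2.0.9 and counted with HTSeq 0.6.1, per the design text, while the submitters' processing notes name Trimmomatic, HISAT2 and HTSeq, so the aligner is uncertain.

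Tests used edgeR 4.0.16 in R 4.3.3 (TMM, filterByExpr, robust quasi-likelihood F tests) on the 17 libraries alone, and p-values were adjusted by Benjamini-Hochberg over all genes tested with a threshold of 0.05. Differences between clock sets (32 libraries) and between drugs (35 libraries) were contrasts of 4 groups. The clock score used TMM over all 64 libraries and a prior count of 2. CPM values are counts over the library total scaled by TMM over all 64 libraries. The standard error (SE) was obtained by dividing the absolute log2 fold change by the root of F. The procedure was tested on simulated counts.

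Replicate numbers were given in sample order within each label and pair no mice. Named genes were Clock, Hdac1, Hdac2, Hdac3, Th, the score genes, the 10 with the smallest p in each direction (predicted genes were counted, not named; 1 lay among the higher), the 3 with the smallest p in a list or a difference where none passed, not all of them printed, and Ttr and cholesterol genes chosen by role after their values were seen. A few listed genes are not reported here. The members of each list, and the libraries compared, were chosen with earlier results of these data known. Positions on mm10 came from GENCODE M21, in which 23376 of the 24421 symbols were found.

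Alternatives were DESeq2 1.42.0, limma voom 3.58.1, RLE factors, no low-count filter, fits of 32 and 64 libraries, terms for label, Th or 3 surrogate variables (sva 3.50.0), wildtype labels alone, pooled vehicles, other clock scores, no selection on the score, and leaving out each library or the vehicle mice numbered from 48 on, where the vehicle labels depart from the design text's 8 mice per group. Leaving out each library for the drug difference was added after the data were examined.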

Additional observations from a re-analysis of the deposited data

Results flagged for a closer look

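The difference between the ACY957 and the VPA effect on Nmu, 3.61 on the log2 scale (SE 0.53, adjusted p = 0.00105 by edgeR), was singled out because the 2 drug effects differed by a test of the difference itself. The drugs had no library in common, and doses of the 2 drugs were not compared.

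In 4 of 86 groups checked, 1 library lay far from the others of its group, and chance gives about 1 in 20. Ttr was at 430 CPM in the ACY957 library labelled mutant, replicate 3, against 0.712 to 12.9 CPM in the other ACY957 libraries of the upper clock set. Hdac1 was at 20.7 CPM in the vehicle library labelled mutant, replicate 6, against 16.6 to 18.3 CPM in the other vehicle libraries of that set. Atf4 was at 130 CPM in the vehicle library labelled wildtype, replicate 4, against 85.3 to 103 CPM. Arntl was at 11.4 CPM in the vehicle library labelled wildtype, replicate 5, against 13.8 to 16.02 CPM.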

How the results depend on the processing

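The main count of 2 genes between ACY957 and vehicle was 19 by DESeq2 and 0 by voom. It was 1 in the 4-group fit of all 32 ACY957 and vehicle libraries, which still compared the upper clock set. A separate comparison took all 32 libraries, without selection on the score and with the label as a term. It called 3 genes, Nmu, Nmur2 and Spag5, without Nsdhl. In the upper set the count was 1 in the fit of 64 libraries, 0 with wildtype labels alone and 0 without the vehicle mice numbered from 48 on. It was 1 with surrogate variables (Il11ra1, with neither Nmu nor Nsdhl) and 1 with pooled vehicles. It was 0 to 4 without any 1 library. The count of 1 gene between the drug effects was 9 by DESeq2, 0 by voom, 4 with Th as a term, 11 without the libraries low in Th, and 1 to 11 without any 1 library. The count of 0 between the clock sets was 0 in each alternative run. The cause of these shifts was not tested. Of 41 gene results, 35 kept their direction in all alternatives run. Clock turned to 0.0074 with surrogate variables and 0.0081 over all libraries with the label as a term, and Hdac2 to 0.055 over all libraries with that term. Hdac3 turned to 0.0063 with pooled vehicles, and Th to 0.13 and 0.023 with surrogate variables and pooled vehicles. With Th as a term Th lay at 0.0042, but its own level is the term there, so that value says nothing about its direction. Sc5d turned to -0.042 with pooled vehicles, and Ttr to -0.18 with wildtype labels alone. Without any 1 library Hdac2 lay at -0.0204 to 0.0164, Hdac3 at -0.037 to 0.0034, Th at -0.15 to 0.0498, and Ttr at -1.10 to 3.78, the lowest without the ACY957 library labelled mutant, replicate 3. No member had Th under 8 log2 CPM, so that alternative gave no value for the main comparison or the clock sets. No paired analysis was possible because each mouse has a number of its own and the groups share none. Low counts limit Nmur2 (1 to 29 reads per library).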
